A study of Homo sapiens with 6 samples.

Results

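The transcripts described here encode the proteins that start and extend polypeptide chains on cytosolic ribosomes, the eukaryotic initiation factors (eIF, genes EIF) and elongation factors (eEF, genes EEF), with the kinases and binding proteins that restrain them. Members were all genes whose symbol begins with EIF or EEF and a number and whose mean over the 6 libraries was at least 1 CPM (a read count scaled to a library of 1000000). This gave 58 of the 13439 listed genes, 51 of them factors and 7 regulators. Factors were counted by name, and include genes described below with other roles (EEF1E1, EIF1AD, EIF4A3 and EIF4ENIF1). A further 4 symbols fell below the minimum. The nearest of them was EIF5AL1 at a mean of 0.565 CPM, while the lowest member, EEF1A2, had a mean of 13.7 CPM.

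The libraries come from the human osteosarcoma line Saos-2. In the treated group cells were exposed for 24 h to 0.20 µM AIL (ailanthone, a plant quassinoid), the dose given as the IC50, and in the control group to the solvent DMSO, with 3 biological replicates each. Both groups share the line and the serum medium. How the replicate cultures were separated is not given in the sources used here, so p-values measure the spread between these libraries. The study asked which pathways AIL changed. Of 8 osteoblast lineage genes held as markers of the line, 3 were listed and 5 were not analysed here. RUNX2 had 4.36 to 5.04 CPM, and BGLAP and SPP1 stayed at or below 0.28 CPM in every library, so those markers were nearly absent. The blood and vessel lining genes VWF and CDH5 were also at or below 0.16 CPM.

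The step between low values gave scaled depths of 35910000 to 38050000 reads in AIL libraries and 32540000 to 35830000 reads in DMSO libraries. All values are shares of a TMM-scaled library (trimmed mean of M values, a scaling that takes most genes as unaltered). A change in total mRNA per cell cannot be seen, and in these bulk samples fewer cells of a kind and less RNA per cell cannot be told apart. Mitochondrially encoded transcripts, held as a sign of RNA quality, summed to 3600 to 3726 CPM in AIL libraries and to 4205 to 4374 CPM in DMSO libraries. Of these 13 genes, 10 were lower in AIL and 0 higher (limma adjusted p under 0.05), where 25.9% of all tested genes were lower and 28.2% higher. Their part in the results below was not tested.

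Translation starts when eIF2 carries the initiator tRNA to the small ribosomal subunit, on which eIF3 is the scaffold, and eIF4F (the cap binder eIF4E, the scaffold eIF4G and the helicase eIF4A) loads the mRNA. The subunit scans for the start codon with eIF1 and eIF1A, eIF5 triggers GTP hydrolysis on eIF2, and eIF5B joins the large subunit. Elongation then uses eEF1A to deliver each aminoacyl-tRNA and eEF2 to move the ribosome along. Stress kinases that phosphorylate eIF2, and the EIF4EBP proteins that sequester eIF4E, hold initiation back. Quassinoids are known as inhibitors of protein synthesis.

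Most factor transcripts were higher under AIL and none of the regulators was. Of the 58 members, 34 rose, 10 fell and 14 did not pass (limma, Benjamini-Hochberg adjusted p under 0.05 over 11069 tested genes). Among all tested genes 28.2% were called higher and 25.9% lower, against 58.6% and 17.2% of the members. By role, 34 were higher and 5 lower among the 51 factors, and 0 higher and 5 lower among the 7 regulators. The regulators are few, and 4 of them are eIF2 kinases. The median log2 difference (AIL minus DMSO, log2(CPM + 1)) was 0.20 for the factors, -0.11 for the regulators and 0.01 for all tested genes.

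The changes were of modest size. The range over members was -0.32 to 0.74 on the log2 scale. Of the 58 members 22 were called with a difference of at least 0.25. That is a larger share than the 2366 of 11069 tested genes (21.4%). All 3 AIL libraries lay above all 3 DMSO libraries for 35 of the 58 members and below them for 13. Among the 11069 tested genes these counts were 3417 and 3230, together 60.1%. Together the 58 transcripts took up 3.66 ± 0.0589% of the scaled library under AIL and 3.08 ± 0.0238% under DMSO (SD, n = 3 each). EEF1A1 alone made up 1.67 ± 0.0375% of it under AIL and 1.35 ± 0.0160% under DMSO.

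**Figure D1:**
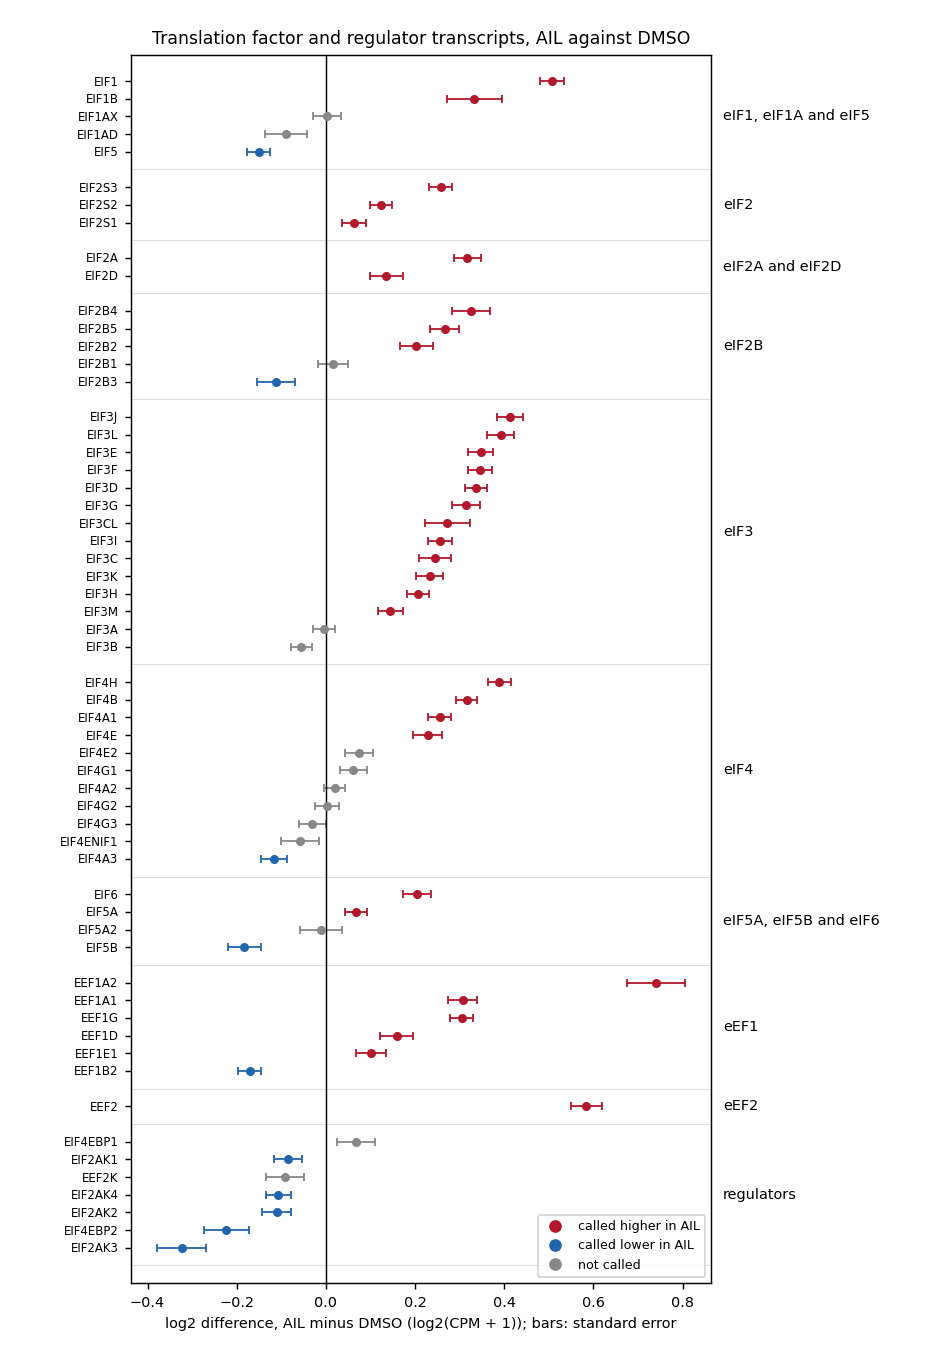
Log2 difference (AIL minus DMSO, log2(CPM + 1), x axis) of the 58 members, grouped by complex; bars are standard errors, red points were called higher, blue lower and grey neither (limma adjusted p under 0.05). Of 14 eIF3 genes 12 are red, and the 7 regulators hold 5 blue and 0 red points. Of all tested genes 28.2% were called higher and 25.9% lower.

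Of the 7 genes with an EEF name outside the regulators, 6 rose (85.7%) and 1 fell (14.3%), against 28.2% and 25.9% of all tested genes. They include EEF1E1, which encodes a scaffold of the tRNA synthetase complex. EEF2, which encodes the translocase, had 2462, 2425 and 2199 CPM in AIL libraries, against 1588, 1562 and 1571 CPM in DMSO libraries. The AIL mean was 50.1% above the DMSO mean (log2 difference 0.58, SE 0.0345, limma adjusted p = 4.74e-10), and the groups lie far apart. EEF1A1, the main carrier of aminoacyl-tRNA, had 17077, 16336 and 16806 CPM under AIL and 13694, 13375 and 13531 CPM under DMSO (log2 difference 0.31, limma adjusted p = 4.47e-07). EEF1A1 was the highest of all listed genes in each library, so quantile normalization, which gives every library the same top value, sets its difference to 0 by construction.

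EEF1A2, the form of eEF1A known from muscle and neurons, showed the largest log2 difference of the 58. It had 18.27, 18.05 and 15.71 CPM in AIL libraries and 9.56, 10.53 and 9.80 CPM in DMSO libraries (log2 difference 0.74, SE 0.0649, limma adjusted p = 5.24e-08). Its median coding transcript length in GENCODE 29 is 665 bases. Per kilobase of that length, EEF1A2 had a mean level of 26.1 CPM per kb under AIL and 15.0 CPM per kb under DMSO. The median counts short annotated transcripts too, so a longer transcript in these cells would give lower levels.

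The exchange complex that reloads eEF1A with GTP did not move as a unit. EEF1G, its gamma subunit, had 1635, 1602 and 1561 CPM under AIL and 1292, 1303 and 1289 CPM under DMSO (log2 difference 0.30, limma adjusted p = 2.61e-08). Its difference was 0.13 with quantile normalization. EEF1D, the delta subunit, averaged 525.4 ± 34.0 CPM under AIL and 470.0 ± 13.7 CPM under DMSO, a log2 difference of 0.16. EEF1B2, the beta subunit, went the other way, with 416.9, 403.1 and 415.0 CPM in AIL libraries and 466.0, 453.7 and 471.1 CPM in DMSO libraries (log2 difference -0.17, SE 0.0252, limma adjusted p = 2.13e-05). EEF1B2 was the sole gene that fell among the 7 with an EEF name outside the regulators, and its groups do not overlap. EEF1E1, a scaffold of the tRNA synthetase complex, rose slightly (log2 difference 0.10, limma adjusted p = 0.0197). It was not called without AIL replicate 1, DMSO replicate 1 or DMSO replicate 2 (adjusted p = 0.0525, 0.0827 and 0.0799).

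**Figure D2:**
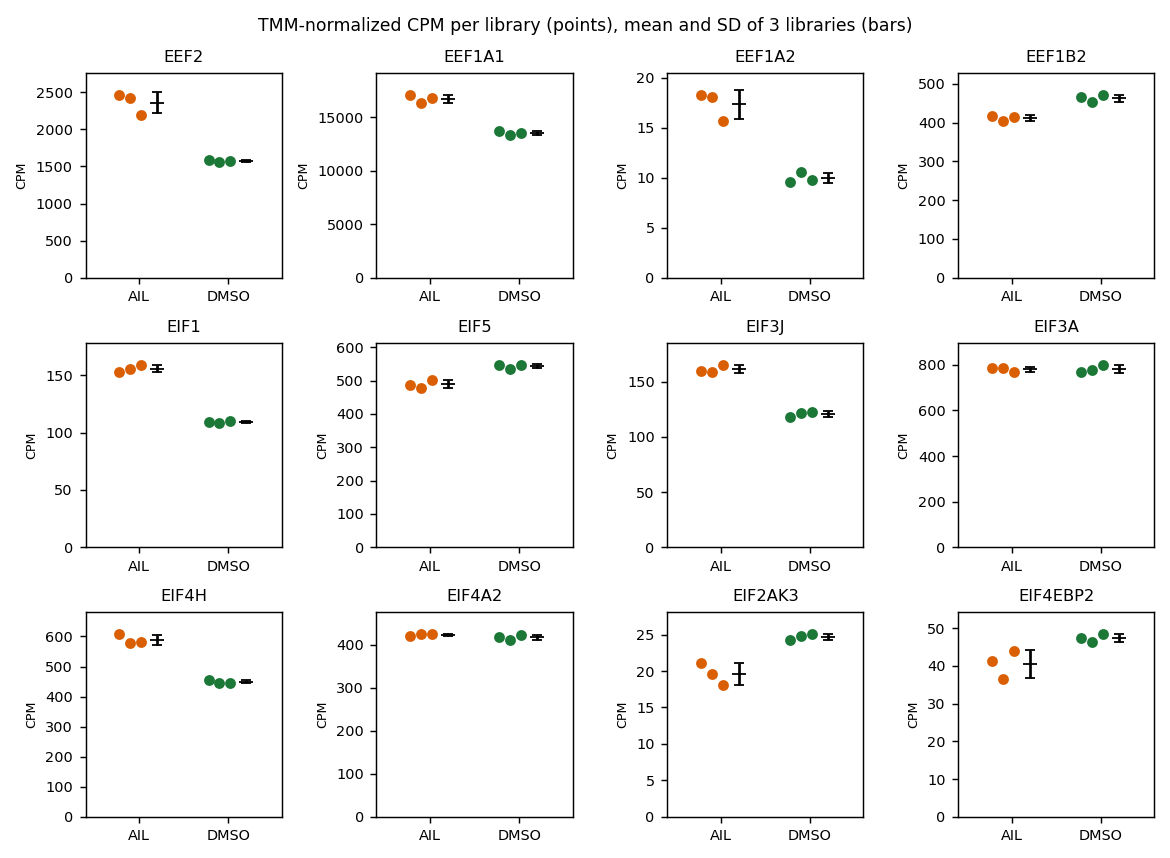
CPM per library (y axis, from 0) for 12 members, with AIL left of DMSO; points are libraries, bars the mean and SD of 3. EEF2, EIF1, EIF3J and EIF4H stand higher in all AIL libraries, EEF1B2, EIF5, EIF2AK3 and EIF4EBP2 lower, while EIF3A and EIF4A2 overlap.

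Transcripts of the translation machinery are known for a 5′ terminal oligopyrimidine (TOP) start, a C followed by a run of pyrimidines at the first base, through which mTOR signalling controls their translation. The annotated starts of members, from RefSeq promoter windows on GRCh38.p14, are shown because the members that begin this way can be set beside those that do not. Each line gives 20 bases before and 25 from the annotated start on the strand of the gene, with the unbroken pyrimidine run from the first transcribed base in capitals.
EEF2, chr19:3985439-3985483, minus strand: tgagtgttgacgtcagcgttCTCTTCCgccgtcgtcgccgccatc
EEF1A1, chr6:73521008-73521052, minus strand: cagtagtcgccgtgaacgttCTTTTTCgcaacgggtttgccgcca
EIF3F, chr11:7987317-7987361, plus strand: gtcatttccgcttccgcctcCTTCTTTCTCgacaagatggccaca
EIF3D, chr22:36529142-36529186, minus strand: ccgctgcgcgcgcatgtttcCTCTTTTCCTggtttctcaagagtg
EIF4B, chr12:53006436-53006480, plus strand: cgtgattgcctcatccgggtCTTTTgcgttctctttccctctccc
EEF1B2, downstream of 2 annotated starts, chr2:206159875-206159919, plus strand: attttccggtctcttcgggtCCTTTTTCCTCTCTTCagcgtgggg
EIF4A2, chr3:186783557-186783601, plus strand: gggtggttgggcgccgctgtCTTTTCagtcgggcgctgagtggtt
EIF1, chr17:41688865-41688909, plus strand: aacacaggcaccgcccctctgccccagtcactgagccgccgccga
EIF4H, chr7:74174336-74174380, plus strand: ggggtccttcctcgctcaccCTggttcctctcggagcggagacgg
EIF5, upstream of 2 annotated starts, chr14:103334217-103334261, plus strand: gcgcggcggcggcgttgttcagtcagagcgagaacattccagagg

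A window was at hand for 47 members. Of these, 12 held at the first base of an annotated start any of the 16 words of 5 letters that start with C and contain only C and T, on the sense strand. That is 25.5% of them, against 7.54% of the 8486 tested genes with a window and 5.14% of all 27305 genes in the table. Of the 12, 10 rose, EEF1B2 fell and EIF4A2 did not pass, and their median log2 difference was 0.28. The 35 members without the word had 16 higher (45.7%) and 8 lower (22.9%), with a median of 0.06. Over all tested genes 28.2% were higher and 25.9% lower. All regulators with a window (EEF2K, EIF2AK2, EIF2AK3, EIF2AK4 and EIF4EBP2) are among the 35, so start and role are mixed in this comparison. This placing at the first base was chosen after values were seen. With the word allowed to begin up to 10 bases to either side of the start, it occurred in 26 members (55.3%) and in 42.3% of tested genes, and the medians of members with and without it were 0.22 and 0.02. For the first-base word over all tested genes, the medians with and without it were both 0.01. The annotated start need not be the start used in these cells, and a match is a description of letters.

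**Figure D3:**
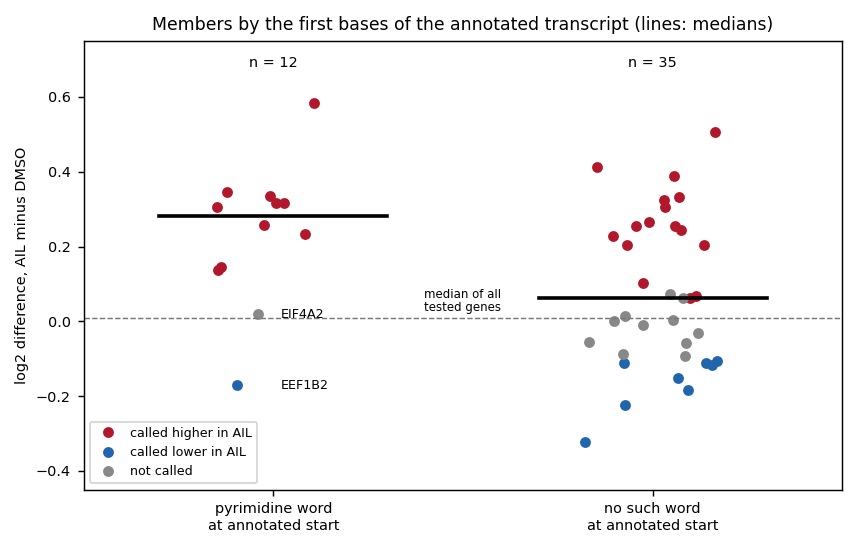
Log2 difference (AIL minus DMSO, y axis) of the 12 members with a pyrimidine word at the annotated start (left) and the 35 without it (right); thick lines are medians and the dashed line is the median of all tested genes. The medians are 0.28 and 0.06, and EEF1B2 and EIF4A2 lie below the other members on the left. All regulators with a window are on the right, and the first-base placing was chosen after values were seen.

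EIF1 and EIF4H, with log2 differences of 0.51 and 0.39, lack the word at the first base and hold it under the wider placing. From textbook knowledge, 9 members are reported TOP transcripts (EEF1A1, EEF1B2, EEF1D, EEF1G, EEF2, EIF3E, EIF3F, EIF3H and EIF4B). Of these 8 rose (88.9%) and 1 fell (11.1%), with a median of 0.31, where 28.2% of all tested genes rose and 25.9% fell. The list need not be complete, and EEF1G, which is on it, has a window without the word under either placing. In the same 300-base windows, searched on both strands, the E-box word CACGTG occurred in 25.5% of members and 12.8% of tested genes. The ETS word CCGGAAG occurred in 29.8% and 24.4%. The ATF4 element TTGCATCA was in 0 of the 47 windows and in 0.695% of tested genes. The CRE word TGACGTCA occurred in 1 member, EEF2, and in 4.01% of tested genes. Its window is shown with that word and the pyrimidine run in capitals.
EEF2, chr19:3985414-3985713, minus strand: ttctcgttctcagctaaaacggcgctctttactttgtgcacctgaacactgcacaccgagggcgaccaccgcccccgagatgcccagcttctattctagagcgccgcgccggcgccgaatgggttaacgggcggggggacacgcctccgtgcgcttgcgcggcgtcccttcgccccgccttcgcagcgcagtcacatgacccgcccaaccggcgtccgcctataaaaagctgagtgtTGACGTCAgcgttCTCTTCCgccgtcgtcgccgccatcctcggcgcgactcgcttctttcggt

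Among the factors of scanning and start codon choice, directions differed. EIF1, which guards the choice of start codon, had 153.2, 155.1 and 159.2 CPM in AIL libraries and 108.9, 108.7 and 110.5 CPM in DMSO libraries. With a mean 42.5% above that of DMSO it was the third largest rise of the 58 (log2 difference 0.51, SE 0.0275, limma adjusted p = 1.84e-10). Its paralog EIF1B had 18.71, 19.13 and 19.16 CPM under AIL and 13.55, 14.74 and 16.49 CPM under DMSO (log2 difference 0.33, limma adjusted p = 2.14e-04). EIF5, the activator of GTP hydrolysis on eIF2, fell to 489.5 ± 12.6 CPM under AIL, against 543.4 ± 6.46 CPM under DMSO (log2 difference -0.15, limma adjusted p = 8.19e-05). For EIF1AX, the X-linked gene of eIF1A, the difference was 0.00 on the log2 scale with a 95% interval of -0.06 to 0.07. EIF1AD, a nuclear protein with an eIF1A-like domain, did not pass (log2 difference -0.09, limma adjusted p = 0.124). With the replicate number as a block its adjusted p was 0.0481.

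All 3 subunits of eIF2 rose, to unlike extents, where 28.2% of all tested genes were called higher. The gamma subunit gene EIF2S3, whose product binds GTP and the initiator tRNA, had 330.1, 321.5 and 325.4 CPM in AIL libraries and 265.8, 274.0 and 277.1 CPM in DMSO libraries (log2 difference 0.26, limma adjusted p = 2.22e-07). EIF2S2, the beta subunit, was 0.12 higher on the log2 scale. EIF2S1 encodes the alpha subunit that the stress kinases phosphorylate. It was 0.06 higher and stood at the threshold (limma adjusted p = 0.0497). It was not called under several alternatives, among them leaving out AIL replicates 1 or 3 or DMSO replicates 1 or 2 (adjusted p = 0.0816 to 0.210).

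The alternative carriers of initiator tRNA rose as well. EIF2A had 178.4, 174.9 and 186.8 CPM under AIL and 141.1, 143.8 and 147.9 CPM under DMSO (log2 difference 0.32, limma adjusted p = 1.35e-07), and EIF2D was 0.14 higher on the log2 scale. In the exchange factor eIF2B, which recharges eIF2 with GTP, the 5 subunits were mixed, with 3 higher (60%) and 1 lower (20%). Over all tested genes the shares were 28.2% and 25.9%. EIF2B4, the delta subunit, had 37.56, 38.65 and 35.81 CPM in AIL libraries and 30.02, 28.57 and 30.19 CPM in DMSO libraries (log2 difference 0.33, limma adjusted p = 6.23e-06). EIF2B5, the catalytic epsilon subunit, had 70.94, 71.69 and 72.71 CPM under AIL and 58.04, 59.69 and 60.81 CPM under DMSO (log2 difference 0.27, limma adjusted p = 2.53e-06). EIF2B2 was 0.20 higher and EIF2B1 0.02 higher without a call. EIF2B3, the gamma subunit that pairs with epsilon, fell by 0.11 on the log2 scale (limma adjusted p = 0.0312). It was not called without AIL replicate 2 (adjusted p = 0.114), DMSO replicate 1 (0.173) or DMSO replicate 3 (0.0731).

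Of the 14 genes of eIF3, 12 rose (85.7%) and 0 fell, with a median log2 difference of 0.26. The shares over all tested genes were 28.2% higher and 25.9% lower. The rise was largest for EIF3J, a loosely bound subunit, with 160.1, 158.9 and 165.6 CPM in AIL libraries against 118.2, 122.0 and 123.0 CPM in DMSO libraries (log2 difference 0.41, SE 0.0285, limma adjusted p = 2.99e-09). EIF3L had 377.9, 349.7 and 366.1 CPM under AIL and 281.7, 267.9 and 282.6 CPM under DMSO (log2 difference 0.39, limma adjusted p = 1.27e-08). EIF3E had 892.8, 857.9 and 919.0 CPM under AIL and 699.6, 689.6 and 708.6 CPM under DMSO, a log2 difference of 0.35 (0.22 with quantile normalization). In each of these 3 the lowest AIL library exceeds the highest DMSO library by a wide margin.

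EIF3F had 326.9, 316.1 and 314.9 CPM under AIL and 257.1, 249.3 and 246.4 CPM under DMSO. EIF3D, a subunit that can itself bind the mRNA cap, had 305.9, 295.8 and 301.0 CPM under AIL and 240.4, 237.6 and 236.5 CPM under DMSO (log2 difference 0.34). EIF3G had 183.6, 186.9 and 171.7 CPM under AIL and 146.6, 143.2 and 145.2 CPM under DMSO (log2 difference 0.31). EIF3I, which sits with EIF3B and EIF3G in one module, rose by 0.26 on the log2 scale, with 326.8, 311.6 and 308.8 CPM under AIL and 265.2, 264.6 and 262.8 CPM under DMSO. EIF3K, EIF3H and EIF3M were 0.23, 0.21 and 0.14 higher.

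The remaining 2 eIF3 genes, EIF3A and EIF3B, were not called. EIF3A averaged 779.4 ± 10.6 CPM under AIL and 781.9 ± 17.2 CPM under DMSO, with a 95% interval of the log2 difference of -0.06 to 0.05. EIF3B averaged 390.4 ± 2.21 CPM under AIL and 405.8 ± 5.78 CPM under DMSO (log2 difference -0.06, limma adjusted p = 0.0583), and with the replicate block its adjusted p was 0.0186. Both were called lower with quantile normalization (log2 differences -0.11 and -0.06, adjusted p = 9.76e-04 and 0.0271). For EIF3C and its near-identical copy EIF3CL, 45.5 and 97.2% of 50-base words occur in other annotated genes, so reads cannot be assigned to either with certainty. Listed separately EIF3CL had 300.3, 360.0 and 301.7 CPM under AIL and 273.8, 252.1 and 267.4 CPM under DMSO. Their sum was 758.8, 774.1 and 735.3 CPM under AIL and 624.3, 629.8 and 640.7 CPM under DMSO (log2 difference 0.26, limma adjusted p = 1.98e-07).

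In the eIF4 group, 4 of 11 genes rose (36.4%) and 1 fell (9.09%). Among all tested genes 28.2% were higher and 25.9% lower, so the share higher was not far from the background. The rises were those of the helicase EIF4A1, the helicase helpers EIF4B and EIF4H, and the cap binder EIF4E. EIF4H had 607.5, 577.4 and 580.3 CPM in AIL libraries and 454.5, 446.1 and 446.5 CPM in DMSO libraries (log2 difference 0.39, SE 0.0257, limma adjusted p = 1.80e-09). EIF4B had 755.8, 740.0 and 744.3 CPM under AIL and 601.5, 592.9 and 604.3 CPM under DMSO (log2 difference 0.32, limma adjusted p = 7.23e-09). EIF4A1 had 1606, 1539 and 1584 CPM under AIL and 1323, 1302 and 1336 CPM under DMSO (log2 difference 0.26, limma adjusted p = 2.32e-07). That difference was 0.10 with quantile normalization. EIF4E averaged 185.5 ± 5.85 CPM under AIL and 158.3 ± 6.42 CPM under DMSO (log2 difference 0.23, limma adjusted p = 1.34e-05).

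The scaffold genes showed no call. EIF4G1, the main scaffold of eIF4F, was 0.06 higher on the log2 scale with a 95% interval of -0.00 to 0.12 (limma adjusted p = 0.0873). Its adjusted p was 0.0429 with the replicate block and 0.00441 without AIL replicate 3, where the difference was 0.09. EIF4G2, which lacks the eIF4E binding site, differed by 0.00 with an interval of -0.06 to 0.06, and was called lower with quantile normalization (log2 difference -0.18, adjusted p = 4.04e-06). For EIF4G3 the difference was -0.03, with an interval of -0.09 to 0.03. EIF4E2, a cap binder that represses translation, missed the threshold (log2 difference 0.07, limma adjusted p = 0.0538). Its adjusted p was 0.0316 with the replicate block and it also passed without AIL replicate 2, where the log2 difference was 0.09. EIF4ENIF1, a shuttle for eIF4E, was also not called. EIF4A3, the helicase of the exon junction complex rather than of initiation, fell by 0.12 on the log2 scale (limma adjusted p = 0.00252).

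Of the factors that act at subunit joining and after it, EIF6, which keeps large subunits from joining too early, had 153.9, 152.5 and 143.2 CPM under AIL and 133.1, 130.2 and 126.4 CPM under DMSO (log2 difference 0.20, limma adjusted p = 3.81e-05). EIF5B, the subunit joining GTPase, fell to 94.1 ± 4.69 CPM under AIL, against 106.9 ± 3.40 CPM under DMSO (log2 difference -0.18, limma adjusted p = 4.04e-04). EIF5A, the hypusine-bearing factor that frees stalled ribosomes, was 0.07 higher (limma adjusted p = 0.0256). It was -0.04 with quantile normalization, and it was not called without AIL replicates 1 or 2 or any DMSO replicate (adjusted p = 0.0593 to 0.0939).

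All 4 eIF2 kinase genes were called lower under AIL, where 25.9% of all tested genes were. EIF2AK3 encodes PERK, the kinase that responds to unfolded protein in the endoplasmic reticulum. It had 21.05, 19.66 and 18.02 CPM in AIL libraries and 24.21, 24.85 and 25.06 CPM in DMSO libraries (log2 difference -0.32, SE 0.0542, limma adjusted p = 7.63e-05), the lowest log2 difference among the 58 members. EIF2AK4 encodes GCN2, which responds to uncharged tRNA. It had 137.7, 134.8 and 137.2 CPM under AIL and 150.1, 145.8 and 145.3 CPM under DMSO (log2 difference -0.11, limma adjusted p = 0.00303). The groups of both genes do not overlap.

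EIF2AK2 encodes PKR, which responds to double-stranded RNA. It had 111.1, 108.6 and 117.6 CPM under AIL and 119.4, 120.7 and 124.1 CPM under DMSO (log2 difference -0.11, limma adjusted p = 0.00790). EIF2AK1 encodes the haem-regulated kinase HRI. It had 90.41, 86.67 and 89.64 CPM under AIL and 92.55, 94.41 and 96.08 CPM under DMSO (log2 difference -0.08, limma adjusted p = 0.0257). This call was lost without AIL replicate 2, DMSO replicate 2 or DMSO replicate 3 (adjusted p = 0.0960, 0.0734 and 0.0989). It was also lost with quantile normalization (log2 difference -0.05, limma adjusted p = 0.127) and without the intensity trend of the fit (limma adjusted p = 0.0663).

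The EIF4EBP genes, whose products hold eIF4E away from eIF4G, split. EIF4EBP2 had 41.13, 36.58 and 43.97 CPM in AIL libraries and 47.38, 46.40 and 48.36 CPM in DMSO libraries (log2 difference -0.22, limma adjusted p = 0.00138). EIF4EBP1 had 59.42, 59.47 and 52.74 CPM in AIL libraries and 54.45, 54.73 and 54.17 CPM in DMSO libraries. Its groups overlap because of AIL replicate 3 (log2 difference 0.07, limma adjusted p = 0.186). Without that library the difference was 0.12 with an adjusted p of 0.00288. EIF4EBP3 was below the minimum in the table, at 0.03 to 0.61 CPM. EEF2K, the kinase that inhibits eEF2, had 30.75, 33.65 and 32.61 CPM under AIL and 35.15, 34.23 and 34.13 CPM under DMSO. It did not pass (log2 difference -0.09, limma adjusted p = 0.0801), although its groups do not overlap. EEF2K passed without AIL replicate 2 (log2 difference -0.12, limma adjusted p = 0.0417) and with quantile normalization (log2 difference -0.11, limma adjusted p = 0.0440).

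Family members with like roles were compared as ratios within each library. For 7 pairs the log2 ratio of CPM + 1 was set between groups with an exact two-sided permutation test, which at 3 against 3 cannot go below p = 0.1, so no pair could pass. For 4 pairs the libraries of the groups did not overlap (exact p = 0.1 each, 0.175 adjusted over the 7 pairs). Taken singly, 60.1% of tested genes also showed no overlap, so this count does not set the pairs apart. The ratio of EEF1A2 to EEF1A1 was 0.43 higher under AIL on this scale. Since EEF1A2 is low, that value depends on the pseudocount, with 0.48 at 0.1 and 0.27 at 5, and it was 0.70 with quantile normalization. The ratio of EIF4A2 to EIF4A1 differed by -0.24, with an SD over 3 libraries of 0.0375 under AIL and 0.00232 under DMSO. With quantile normalization the difference was -0.10. EIF4A2 itself averaged 423.5 ± 2.47 CPM under AIL and 417.8 ± 5.02 CPM under DMSO, with a 95% interval of its log2 difference of -0.03 to 0.07. The ratio of EIF4E2 to EIF4E differed by -0.15, and that of EIF4EBP2 to EIF4EBP1 by -0.29. The EIF4EBP difference was -0.19 without AIL replicate 2 and -0.41 without AIL replicate 3. EIF4G2 and EIF4G3 over EIF4G1, and EIF5A2 over EIF5A, overlapped between the groups.

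**Figure D4:**
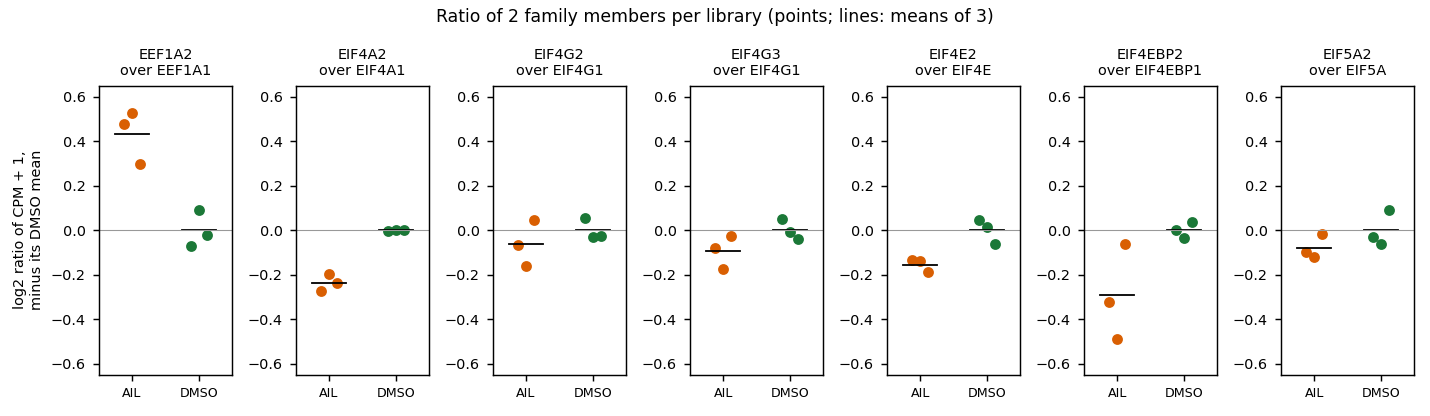
Log2 ratio of CPM + 1 of 2 family members per library, less the DMSO mean of that ratio (y axis), for 7 pairs with AIL left of DMSO; points are libraries and lines means of 3. The groups do not overlap for EEF1A2 over EEF1A1 (0.43), EIF4A2 over EIF4A1 (-0.24), EIF4E2 over EIF4E (-0.15) and EIF4EBP2 over EIF4EBP1 (-0.29). No pair could pass the test, and 60.1% of single tested genes also showed no overlap.

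Per kilobase of coding transcript (median length in GENCODE 29, CPM per kb), members spanned a wide range of levels. EEF1A1 led at 7269 CPM per kb under AIL and 5876 CPM per kb under DMSO. EIF4A1 came next with 2082 under AIL and 1744 under DMSO, in the same unit. The regulators EIF4EBP2, EIF2AK3 and EEF2K were the lowest 3, at 5.59, 4.64 and 4.38 CPM per kb under AIL and 6.53, 5.85 and 4.67 CPM per kb under DMSO. The median counts every annotated coding transcript, short ones included, and was 757 bases for EIF4A1 and 7388 bases for EEF2K. The order of genes depends on these lengths, which need not be those of the transcripts in these cells. Without length, EEF2 came after EEF1A1, at 2362 CPM under AIL and 1573 CPM under DMSO, and EEF1A2 was lowest. Many factor genes have processed copies or overlapping annotated genes. For 8 of the 58 at least 25% of 50-base words occur in another annotated gene, among them EEF1G (95.8%), EIF3L (44.5%), EIF4A1 (41.0%), EEF1B2 (31.4%), EIF4B (27.6%) and EEF1D (27.5%). For EEF1A1 the share was 22.5%. Their values are uncertain to that extent, and 29 members share under 5%.

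Other genes of translation, outside the EIF and EEF names, were mixed. Of 59 tested, 17 rose (28.8%) and 12 fell (20.3%), with a median log2 difference of 0.02. Over all tested genes the shares were 28.2% higher and 25.9% lower, so the share higher was near the background. The helicase and RNA-bound control list had 0 higher and 5 lower (71.4%) of 7. In it PDCD4, an inhibitor of eIF4A, had 65.05, 64.69 and 65.58 CPM in AIL libraries and 95.84, 92.87 and 96.92 CPM in DMSO libraries (log2 difference -0.54, limma adjusted p = 2.79e-10). GSPT1, which encodes the release factor eRF3a, had 279.7, 278.3 and 282.1 CPM under AIL and 342.2, 340.1 and 341.2 CPM under DMSO, with a difference of -0.28. In its list of termination and recycling, 3 rose (42.9%) and 2 fell (28.6%) of 7.

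Controls of the eIF2 kinases and phosphatase gave 3 higher (42.9%) and 1 lower (14.3%) of 7. PPP1R15A, which directs a phosphatase to eIF2, had 43.55, 45.56 and 40.94 CPM under AIL and 26.92, 24.82 and 25.42 CPM under DMSO. Of 13 genes of the mTOR branch, 4 rose and 4 fell (30.8% each), near the 28.2% higher and 25.9% lower of all tested genes. RPTOR, the scaffold of mTOR complex 1, had 40.61, 36.99 and 35.95 CPM under AIL and 27.07, 26.27 and 26.40 CPM under DMSO (log2 difference 0.49, limma adjusted p = 1.36e-07). Among 9 mitochondrial translation factors 4 rose (44.4%) and 0 fell. MTIF2, the mitochondrial counterpart of an initiation factor, had 102.3, 101.2 and 106.8 CPM under AIL and 73.35, 72.71 and 78.84 CPM under DMSO. Of 9 genes that modify eIF5A or eEF2, 2 rose (22.2%, under the share of all tested genes) and 0 fell. The hypusine enzyme gene DOHH was 0.25 higher on the log2 scale. DOHH had 29.99, 33.62 and 29.99 CPM under AIL and 25.93, 27.33 and 24.86 CPM under DMSO, without overlap. Of 7 poly(A) binding genes 1 rose (14.3%) and 0 fell. That gene was LARP1, which binds TOP mRNAs (log2 difference 0.12, limma adjusted p = 0.00296). LARP1 had 168.6, 169.2 and 167.6 CPM under AIL and 147.7, 155.4 and 161.4 CPM under DMSO.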

How the data were processed

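RNA-seq of Saos-2 cells was deposited by the authors as 1 table of TMM-normalized CPM, printed to 2 decimals, and TMM is the scaling its title names. The submitters' processing notes name RSEM and edgeR 3.8.5 without a role. Aligner, genome build, annotation and strandedness are not stated in what was used here, so no gene coordinates come from the table. At least 99.9% of low values lay within the rounding of the 2 decimals from a whole number of reads, which gives the depths. That rounding is a large part of a read: 51.1 to 80.5% of the lowest values came within 0.1 read of a whole number, under the 95% required to treat values as reads, and no count test was run. The 11069 genes of 13439 that reached a mean of 1 CPM entered a two-sided limma test (version 3.58.1, R 4.3.3) of log2(CPM + 1), with an intensity trend and Benjamini-Hochberg adjustment, called at an adjusted p under 0.05. Differences on this scale understate the change of low genes. The test was checked on simulated data. Intervals of 95% come from the same fit.

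Members and lists were chosen with earlier results of these data known. Values per sample are given for every regulator, every called member with a difference of at least 0.25 and, per complex, the member with the smallest p; of the other translation genes, for the called gene with the smallest p in each list. Other genes given with values were chosen after these were seen. As a check of pairing, each library's departures from its group mean were correlated across genes with those of the other group. Libraries of like number gave 0.159, 0.133 and 0.129, each over the bound of 0.1, and the other combinations -0.179 to 0.0210. The pairing comes from the data alone. A fit with the number as a block was an alternative, as were other pseudocounts, filters and scalings, and leaving out each replicate. After the data were seen, a fit with EIF3C and EIF3CL summed was added. Promoter windows are from RefSeq (GRCh38.p14), and shared words, on either strand, and lengths from GENCODE 29.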

Additional observations from a re-analysis of the deposited data

How the results depend on the processing

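The counts of members higher and lower, 34 and 10, ranged over 31 to 36 and 8 to 13 across these settings (pseudocounts of 0.1 and 5, no minimum or a mean of 5 CPM, quantile and median-of-ratios scaling, no intensity trend, the replicate block and leaving out each replicate). No scaling moved the median of all genes by more than 0.0160 on the log2 scale. The replicate block gave 36 higher and 12 lower members, kept all 44 calls and added EIF1AD, EIF3B, EIF4E2 and EIF4G1. It changed no other member's call. The median over the members, 0.14, was 0.11 with quantile normalization. Under the same normalization EIF4G2 stood at -0.18 and EIF5A at -0.042, both on the other side of 0, and the ratios of EIF4G3 to EIF4G1 and of EIF5A2 to EIF5A turned to 0.00838 and 0.00464. The cause was not tested. For EEF1A1 the construction of the normalization removes the difference. Of 812 recomputed values of single members, 27 lost a call and 14 gained one without a change of sign. A further 2 changed sign as well as call, since EIF5A lost its call and EIF4G2 gained one. The other 769 kept the main result, called or not. The count test was not run, since rounding to 2 decimals blurs the reads behind low values.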
